A study of Homo sapiens with 16 samples.

Results

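Small nucleolar RNAs (snoRNAs) are short nuclear RNAs that guide chemical modification of ribosomal RNA (rRNA). The genes described here are those whose symbol starts with SNORA or SNORD followed by digits and that reached 1 RPKM or more (RPKM being the read number divided by gene length and by the size of the library) in at least 8 of 16 libraries. This rule kept 91 of the 57820 genes in the table, 49 of them in the C/D class (SNORD) and 42 in the H/ACA class (SNORA). The table holds 399 SNORD and 406 SNORA records, of which 288 and 309 never reached 1 RPKM in any library. The rule used levels over all 16 libraries and no contrast, but high values in 1 treatment could go far to meet it. SNORD1B and SNORD3A met it with 7 cisplatin libraries and 1 untreated library each. SNORD43, SNORD117, SNORD119, SNORA28 and SNORA69 reached 1 RPKM in 8 cisplatin and 4 untreated libraries. In such genes the rule favours higher values with cisplatin. No snoRNA gene reached 1 RPKM only in cisplatin libraries or only in untreated ones, and 1, SNORA40, did so only in shPRMT1 libraries (11 of them).

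The RNA came from SK-OV-3, a widely used cell line from a human ovarian tumour. These cells carried 1 of 3 shRNAs against PRMT1 (shPRMT1 #1, #3 and #5) or a scrambled control shRNA (shScramble), and were kept for 24 h with 20 µM cisplatin, a platinum drug that crosslinks DNA, or without it. The 8 groups were shPRMT1 #1, #3 and #5 with cisplatin, the same 3 populations untreated, shScramble with cisplatin and shScramble untreated, with 2 replicates each. PRMT1 methylates arginines of many nuclear proteins, and the C/D protein fibrillarin is among its substrates. Whether replicates were separate cultures, or the shRNA populations clones, is not in the labels. The p-values measure the spread between the 2 replicates within each group, which may be technical. They do not measure the spread between shRNA populations.

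C/D snoRNAs hold a C box near the 5′ end and a D box near the 3′ end and guide 2′-O-methylation of rRNA by fibrillarin. H/ACA snoRNAs end in an ACA box and guide pseudouridylation by dyskerin. In human cells most of both classes lie in introns of other genes, often genes for ribosomal proteins or translation factors, or in spliced non-coding RNAs whose introns carry them. They are released from the excised intron by debranching and trimming and lack a poly(A) tail. The libraries were made with an mRNA kit that does not mark strand. A read within a snoRNA gene may thus come from the mature snoRNA, from unspliced host RNA, from a host exon that overlaps it or from an antisense transcript. These cannot be told apart.

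Sequences of the snoRNA genes to which the results below return were taken by gene ID from the GENCODE 29 transcripts (GRCh38 build), which hold 87 of the 91 IDs. They are printed 5′ to 3′ in the sense of the RNA. Capitals mark TGATGA (C box) starting within the first 15 bases and CTGA (D box) within the last 15 bases of a C/D sequence, or ACA within the last 8 bases and ahead of the last 2 in an H/ACA sequence. Only the RNA's own strand was searched, and the letters do not overlap. The first 2 C/D sequences belong to highly read genes, SNORD100 within RPS12 (chr6:132816802-132816877, plus strand) and SNORD14A within RPS13 (chr11:17074654-17074744, minus strand). The next 3 belong to genes with large cisplatin differences, SNORD43 within RPL3 (chr22:39319050-39319113, minus strand), SNORD99 within SNHG12 (chr1:28578749-28578822, minus strand) and SNORD19 within GNL3 (chr3:52689248-52689315, plus strand).
SNORD100: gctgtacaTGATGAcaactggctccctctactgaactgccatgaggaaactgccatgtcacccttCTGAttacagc
SNORD14A: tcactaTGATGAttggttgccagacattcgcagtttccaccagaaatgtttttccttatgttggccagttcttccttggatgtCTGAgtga
SNORD43: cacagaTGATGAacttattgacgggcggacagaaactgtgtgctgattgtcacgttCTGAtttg
SNORD99: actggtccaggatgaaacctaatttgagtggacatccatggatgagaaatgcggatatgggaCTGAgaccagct
SNORD19: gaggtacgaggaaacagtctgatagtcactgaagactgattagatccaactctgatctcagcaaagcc

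The H/ACA sequences are those of 4 of the genes called between knockdown and control cells, shown because their values are followed through all groups below, and of both SNORA31 records, 1 of which was called lower. SNORA65 lies within RPL12 (chr9:127448501-127448630, minus strand), SNORA13 within EPB41L4A-AS1 (chr5:112161485-112161617, plus strand), SNORA14B within TOMM20 (chr1:235127803-235127937, minus strand) and SNORA2B within KANSL2 (chr12:48667457-48667593, minus strand). The SNORA31 record ENSG00000253051 (chr13:45336314-45336447, minus strand) lies outside any gene of the same strand, and the record ENSG00000199477 (chr13:45337480-45337609, minus strand) lies within TPT1.
SNORA65: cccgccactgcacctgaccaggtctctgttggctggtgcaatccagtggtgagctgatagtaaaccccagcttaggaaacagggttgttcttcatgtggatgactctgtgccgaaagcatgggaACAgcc
SNORA13: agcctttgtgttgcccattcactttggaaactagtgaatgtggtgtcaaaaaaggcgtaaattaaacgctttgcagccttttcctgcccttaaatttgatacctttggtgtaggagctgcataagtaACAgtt
SNORA14B: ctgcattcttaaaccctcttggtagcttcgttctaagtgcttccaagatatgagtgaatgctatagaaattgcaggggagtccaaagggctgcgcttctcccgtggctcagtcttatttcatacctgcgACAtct
SNORA2B: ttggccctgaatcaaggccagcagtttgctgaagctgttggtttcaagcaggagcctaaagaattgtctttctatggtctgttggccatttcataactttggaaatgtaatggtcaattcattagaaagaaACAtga
SNORA31 (ENSG00000253051): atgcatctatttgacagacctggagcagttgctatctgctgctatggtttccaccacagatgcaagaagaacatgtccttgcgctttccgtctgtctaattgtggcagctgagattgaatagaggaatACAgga
SNORA31 (ENSG00000199477): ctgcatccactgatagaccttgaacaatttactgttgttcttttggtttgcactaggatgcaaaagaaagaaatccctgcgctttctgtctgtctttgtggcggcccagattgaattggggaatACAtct

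The class names held in the sequences. Among 47 C/D sequences, 32 had TGATGA near the start, 40 had CTGA near the end and 31 had both. Among 40 H/ACA sequences, 34 had ACA at the end, against 7 of the 47 C/D sequences, while TGATGA near the start was found in 0 and CTGA near the end in 1. SNORD19 and SNORD99 show that a C/D gene may lack the exact TGATGA letters in these windows. The record named SNORA40 is 2275 bases long and is not in GENCODE 29, and SNORD3A is 699 bases long, so their reads need not come from a snoRNA. The SNORA66 record ENSG00000251795 is 53 bases long, against 133 for the other SNORA66 record, and is not in GENCODE 29. Its sequence was thus not checked for the class. The record SNORA76 spans 507 bases, is named SNHG25 in GENCODE 29 and overlaps SNORD104.

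Library totals recovered from the RPKM steps lay between 12289319 and 16039782 reads, a ratio of 1.31. PRMT1 served as the check of the labels. It ran from 4.12 to 10.4 RPKM (median 5.14) in the 6 shPRMT1 cisplatin libraries and from 4.58 to 8.48 RPKM (median 6.79) in the 6 untreated shPRMT1 libraries, against 17.8 and 20.5 RPKM in shScramble cells with cisplatin and 19.3 and 23.5 RPKM in untreated shScramble cells. All shPRMT1 libraries were below all shScramble ones, with a log2 difference of -1.61 (SE 0.22) under cisplatin and -1.59 (SE 0.22) untreated (limma). The 5 epithelial markers (KRT8, KRT18, KRT19, EPCAM, ERBB2) averaged 22.0 to 54.7 RPKM over the 16 libraries. Of 11 markers of fibroblasts, endothelium and leukocytes, 3 reached 1 RPKM in any library (LUM, KDR and CD14) and none was at 0 in all libraries. Their sum ran from 8.65 to 23.0 RPKM in shPRMT1 cisplatin libraries, 16.2 to 28.7 in untreated shPRMT1 libraries, 10.4 to 10.6 in shScramble cisplatin libraries and 13.7 to 15.6 in untreated shScramble libraries, most of it LUM. Its part in the results was not tested.

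Reads on snoRNA genes were few. Over the 5 comparisons below, 39 of the 91 genes were called in none. That count was not made over all genes, of which 54% were called for cisplatin in shPRMT1 cells alone. The median gene averaged 6.38 reads per library, 24 genes averaged 10 reads or more and 67 fewer, and 30 of the 91 were at 0 reads in at least 1 library. In a gene of 100 bases, 1 read was worth 0.623 to 0.814 RPKM, and a floor of 3 reads 1.87 to 2.44 RPKM. Floors cover counting error only. In all 16 libraries, 42 genes were at 1 RPKM or more, but for a short gene this does not mean many reads. SNORD48, which is 1 of the 42, averaged 3.5 reads. The highest mean level was that of SNORA33 (21.7 RPKM), a large-subunit rRNA guide in RPS12, followed by SNORD100 (18.4 RPKM), a small-subunit guide in the same gene. SNORD78 in GAS5 (15.8 RPKM), SNORD17 in SNX5 (15.2 RPKM) and the SNORD63 record ENSG00000222937 in HSPA9 (14.8 RPKM) came next. The ranges of these 5 genes over the 16 libraries overlapped. At the edge of the rule were SNORD1B, SNORD82, SNORA12, SNORD124 and SNORD3A, inside it at 1 RPKM in 8 libraries, and SNORA80B, SNORD37, SNORD41 and SNORD64, outside it at 1 RPKM in 7 libraries.

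Of the 91 genes, 82 lay wholly within another gene on the same strand, 47 of them C/D and 35 H/ACA. They had 63 host genes, of which 13 held 2 or 3 snoRNA genes each, such as RPS12 (SNORA33, SNORD100 and SNORD101) and GNL3 (SNORD69 and both SNORD19 records). By the GENCODE 29 transcripts, 62 snoRNA genes lay in an intron of every host transcript, 12 overlapped an exon of a host transcript and 5 overlapped only exons of retained-intron transcripts. Reads could be split with a near-identical copy (90% identity or more over at least 80% of the length) for 19 genes, SNORA14B (91.8% identical to SNORA14A), SNORA73B (94.6% identical to SNORA73A), SNORA2B, SNORA26 and SNORA71B among them, so their values are uncertain. Of the 91, 14 of the records share their symbol with another record and are named here with their gene ID where needed.

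In shPRMT1 cells, snoRNA genes were mostly higher with cisplatin than without. The summed level of the C/D genes was 409 ± 53.1 RPKM in the 6 shPRMT1 cisplatin libraries (351 to 491), against 227 ± 27.6 RPKM in the 6 untreated shPRMT1 libraries (201 to 270; mean ± SD), a ratio of 1.80. The summed level of the H/ACA genes was 240 ± 36.5 RPKM (181 to 288) with cisplatin, against 142 ± 23.3 RPKM (116 to 172) untreated, a ratio of 1.69. The cisplatin libraries were above every untreated library in both classes. By shRNA, the C/D ratio was 1.80 for #1, 1.45 for #3 and 2.25 for #5, and the H/ACA ratio 1.59, 1.52 and 2.01 in the same order.

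**Figure D1:**
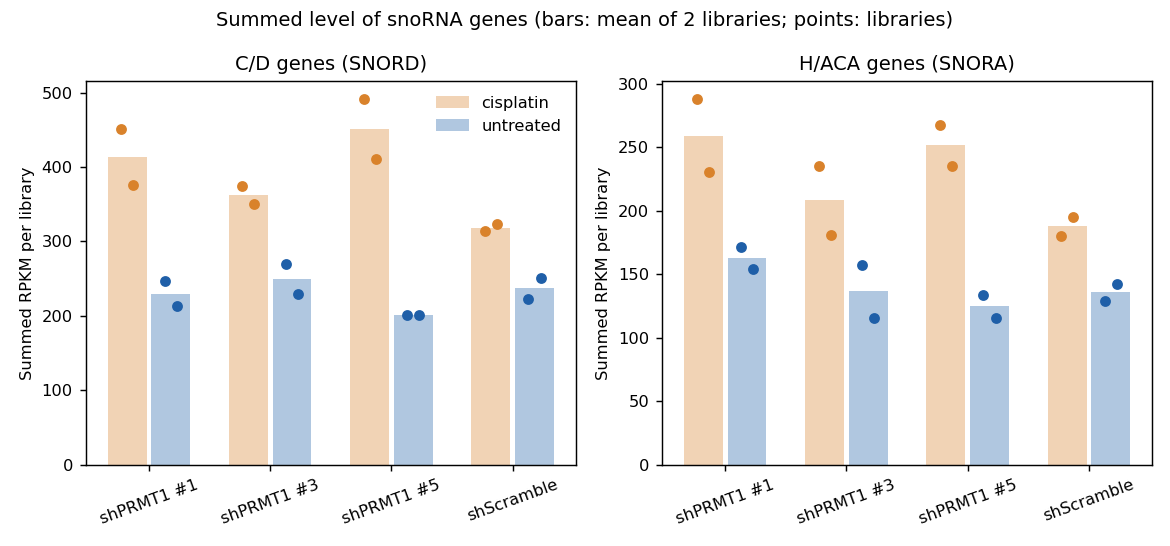
Summed RPKM of the 49 C/D genes (left) and the 42 H/ACA genes (right) in each library, by cell population, with cisplatin left of untreated; bars are means of 2 libraries and points are libraries. Cisplatin libraries lie above untreated ones of the same population in both classes, with ratios from 1.34 (C/D, shScramble) to 2.25 (C/D, shPRMT1 #5).

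Gene by gene, 28 of 49 C/D genes rose after cisplatin in shPRMT1 cells and 0 fell, and 21 of 42 H/ACA genes rose and 1 fell, where 30.4% of all 18149 genes tested were called higher and 23.6% lower, 54.0% in either direction (limma on log2(RPKM + 1), adjusted p under 0.05 over all genes). Members called higher were thus 53.8% of the 91. The rule asked for 1 RPKM in 8 libraries and the test of all genes for 2, so these sets were not filtered alike. The median log2 difference was 0.75 for C/D genes and 0.58 for H/ACA genes, beside 0.04 over all genes tested. With a pseudocount of 5 in place of 1 these medians were 0.44 and 0.30. The difference was above 0 in 44 C/D and 37 H/ACA genes. All 6 cisplatin libraries lay above all 6 untreated ones for 12 C/D genes (24.5%) and 9 H/ACA genes (21.4%), and for 12.8% of all genes tested; the reverse held for 1 H/ACA gene, SNORA40, and for 11.5% of all genes. The call was made for 13 of the 24 genes that averaged 10 reads or more and for 36 of the other 67.

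The lowest adjusted p belonged to SNORA13, a small-subunit rRNA guide that has been tied to oncogene-induced senescence in human cells. It ran from 3.49 to 8.57 RPKM (median 6.21) in shPRMT1 cisplatin libraries, against 1.55 to 2.82 RPKM (median 1.82) in untreated shPRMT1 libraries. No library of one treatment reached those of the other. Its log2 difference was 1.20 (SE 0.13, adjusted p 1.49e-05, limma). SNORA65, a large-subunit guide, ran from 9.86 to 15.6 RPKM (median 12.9) with cisplatin, against 4.47 to 7.19 RPKM (median 5.73) untreated, again without overlap, a log2 difference of 0.98 (SE 0.12, adjusted p 3.42e-05, limma).

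SNORA60, within SNHG11, ran from 5.46 to 9.11 RPKM (median 6.90) in shPRMT1 cisplatin libraries, against 0 to 2.73 RPKM (median 1.33) in untreated ones. The groups did not overlap, and the log2 difference was 1.88 (SE 0.23, adjusted p 3.68e-05, limma). SNORA71B, within SNHG17, had 3.96 to 8.93 RPKM with cisplatin, against 0.534 to 3.19 RPKM untreated, a log2 difference of 1.35 (SE 0.17). Of the other 2 genes in SNHG17, SNORA71C rose by 1.59 (SE 0.25) and SNORA71A was not called (0.98, SE 0.39).

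Among C/D genes SNORD43, a small-subunit methylation guide, had the largest difference. It ran from 4.74 to 12.0 RPKM (4 to 10 reads) in shPRMT1 cisplatin libraries, against 0 to 2.15 RPKM (0 to 2 reads) in untreated ones, 4 of which were at 0. The log2 difference was 2.51 (SE 0.32, adjusted p 5.83e-05, limma) and rests on few reads. The SNORD19 record ENSG00000212493, a small-subunit guide, had 10.8 to 22.7 RPKM with cisplatin, against 2.02 to 8.83 RPKM untreated, a log2 difference of 1.81 (SE 0.25). SNORD17, a long C/D gene with 49.9 reads per library on average, had 17.0 to 23.7 RPKM with cisplatin, against 8.55 to 15.7 RPKM untreated, a log2 difference of 0.85 (SE 0.15). SNORD99, a large-subunit guide, had 7.33 to 14.5 RPKM with cisplatin, against 0.899 to 5.07 RPKM untreated (log2 difference 1.69, SE 0.31).

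Of the genes with the highest levels, SNORA33 ran from 19.1 to 36.1 RPKM (median 24.1) in shPRMT1 cisplatin libraries, against 14.3 to 23.1 RPKM (median 17.6) in untreated ones. These ranges overlapped, and the log2 difference of 0.52 (SE 0.14) passed the test. SNORD100 had 13.3 to 37.5 RPKM with cisplatin, against 7.65 to 21.7 RPKM untreated, a log2 difference of 0.75 (SE 0.24), a call lost without replicate 1 of the #1, #3 or #5 cisplatin libraries or of #1 untreated, or without replicate 2 of #3 or #5 untreated. SNORD101, the third gene in RPS12, rose by 1.04 (SE 0.18). SNORD78 (0.50, SE 0.22) and SNORA45 (0.41, SE 0.18) were not called.

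SNORA40 was the 1 record called lower, at 0.639 to 1.31 RPKM in shPRMT1 cisplatin libraries, against 1.32 to 1.72 RPKM in untreated ones. Its log2 difference was -0.26 (SE 0.09, adjusted p 0.028, limma), lost at a pseudocount of 0.1 (adjusted p 0.0582, limma), without the low-value filter and without 1 of 7 libraries. Of the snoRNA genes that act in rRNA cleavage rather than in guiding a single modification, 4 of 14 records passed the low-value filter. Of these 4, 3 rose, where 30.4% of all genes tested were called higher. They were SNORD14A at 0.76 (SE 0.18), SNORD3A at 0.55 (SE 0.15) and SNORA73B at 0.61 (SE 0.21). SNORD3A is the 699-base record whose reads need not come from a snoRNA, and it met the rule with 7 cisplatin libraries and 1 untreated library. The SNORA73B call was lost without the low-value filter and without 1 of 6 libraries. SNORD14E had a difference of -0.13 (SE 0.20). SNORD118, SNORD13 and SNORD22, listed with these, are listed at 0 in all 16 libraries.

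In shScramble cells both sums were also higher with cisplatin. The C/D sum was 313 and 323 RPKM in the 2 shScramble cisplatin libraries, against 223 and 251 RPKM in the 2 untreated ones, a ratio of 1.34. The H/ACA sum was 181 and 196 RPKM with cisplatin, against 129 and 142 RPKM untreated, a ratio of 1.39. Both cisplatin libraries were above both untreated ones in each class. Calls were made for 3 C/D and 5 H/ACA genes, all higher, where 15.5% of all genes tested were called higher and 14.7% lower (30.2% in either direction), so that the 8.79% of snoRNA genes called stood below that background. With the replicate number as a block, 12 snoRNA genes were called higher and 1 lower. The median log2 difference was 0.34 for C/D and 0.24 for H/ACA genes, beside -0.01 over all genes tested. The C/D median was 0.56 with a pseudocount of 0.1, 0.19 with a pseudocount of 5 and 0.52 by voom. All 8 genes called were also called higher in shPRMT1 cells, where 53.8% of the 91 were. This overlap was not counted over all genes.

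SNORA65 had 6.81 and 11.2 RPKM in shScramble cisplatin libraries, against 3.14 and 2.19 RPKM in untreated ones. Both cisplatin libraries were above both untreated ones, which was also so for 32.9% of all genes tested in these cells. The log2 difference of SNORA65 was 1.43 (SE 0.20, adjusted p 0.000343, limma). SNORA13 had 2.05 and 3.48 RPKM with cisplatin, against 0.512 and 0.534 RPKM untreated, which are 1 read each. Its log2 difference was 1.28 (SE 0.22). SNORD99 had 10.1 and 7.15 RPKM with cisplatin, against 0 and 2.88 RPKM untreated (log2 difference 2.27, SE 0.54). The call of SNORD99 was lost without replicate 1 of either shScramble group and when only the groups compared were fitted.

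The other 5 genes called in shScramble cells were the SNORD63 record ENSG00000206989 (1.62, SE 0.43), SNORD72 (1.28, SE 0.35), the SNORA66 record ENSG00000251795 (1.39, SE 0.39), SNORA14B (1.11, SE 0.32) and SNORA26 (1.23, SE 0.40), the last of which was picked out after its values were seen. That SNORA66 record, which is 53 bases long and not in GENCODE 29, had 15.4 and 17.5 RPKM in shScramble cisplatin libraries, against 3.86 and 8.04 RPKM in untreated ones. The call was lost without 1 of 3 shScramble libraries for that SNORD63 record, SNORA66 and SNORA14B and without 1 of 2 for SNORD72, while those of SNORA65 and SNORA13 held without any 1 library. Those of that SNORD63 record, SNORA66 and SNORD72 were also lost when only the groups compared were fitted. The SNORA14B call was lost at a pseudocount of 5 and by voom with and without the block, and the SNORD72 call by voom without it.

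**Figure D2:**
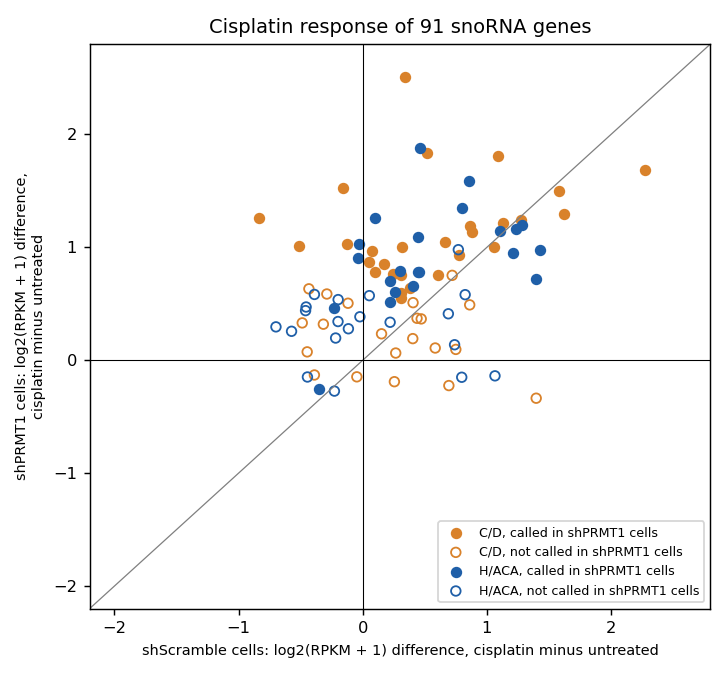
Log2(RPKM + 1) difference, cisplatin minus untreated, of the 91 snoRNA genes in shPRMT1 cells (vertical) and in shScramble cells (horizontal), filled where the gene was called in shPRMT1 cells; the grey line marks equal differences. Most points lie above 0 on both axes, with medians of 0.75 (C/D) and 0.58 (H/ACA) in shPRMT1 cells and 0.34 and 0.24 in shScramble cells.

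The difference between these responses, shPRMT1 minus shScramble, was tested directly. No snoRNA gene was called, where 2.08% of all genes tested were called higher and 3.11% lower (5.19% in either direction). An unadjusted p under 0.05 was found for 14 of the 91 and for 3469 of all 18149 genes tested, a larger share. Voom on the recovered reads called 0 of the 91, and 6 were called, all higher, with the replicate number as a block. The median was 0.26 for C/D and 0.37 for H/ACA genes, beside 0.02 over all genes. Values were above 0 in 64 of 91 (70.3%), against 53.0% of all genes tested. The C/D median was 0.16 with a pseudocount of 5 and 0.41 without replicate 1 of untreated shScramble cells, and the H/ACA median 0.63 with a pseudocount of 0.1. SNORD43 had the largest value among the genes described here (2.17, SE 0.64, adjusted p 0.0856, limma), with 4.26 and 2.07 RPKM in shScramble cisplatin libraries against 2.13 and 2.22 RPKM in untreated shScramble libraries. SNORA2B (1.16, SE 0.37), SNORA60 (1.42, SE 0.45) and SNORA69 (1.05, SE 0.31) also missed the threshold. For SNORA13 the difference was -0.08 (SE 0.25) and for SNORA14B 0.03 (SE 0.36).

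Knockdown of PRMT1 without cisplatin moved few snoRNA genes. Untreated shPRMT1 libraries differed from untreated shScramble ones by a median log2 difference of -0.08 in C/D genes, and it was near 0 in H/ACA genes and over all genes. Calls were made for 1 C/D gene, higher, and for 5 H/ACA genes, 4 higher and 1 lower, where 4.41% of all genes tested were called higher and 3.83% lower (8.24% in either direction). The share of snoRNA genes called higher, 5.49%, was near that background. By shRNA, the C/D median was -0.05 for #1, 0.10 for #3 and -0.16 for #5.

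The SNORA31 record ENSG00000253051 was the 1 called lower. It ran from 3.82 to 7.19 RPKM (median 4.65) in untreated shPRMT1 libraries, against 12.7 and 12.2 RPKM in untreated shScramble libraries. Every library of the 3 shRNAs was below both control libraries, which was not counted over all genes tested. The log2 difference was -1.18 (SE 0.18, adjusted p 0.00279, limma), a call kept under all 25 alternatives tried. With cisplatin it ran from 5.47 to 9.25 RPKM in shPRMT1 libraries, against 11.7 and 9.38 RPKM in shScramble libraries, a log2 difference of -0.50 (SE 0.18, adjusted p 0.0735, limma). Within shPRMT1 cells it rose with cisplatin by 0.46 (SE 0.12), a call that voom did not make (adjusted p up to 0.0609). The record lies 425 bases outside TPT1 on the same strand and has no host. The other SNORA31 record, within TPT1, had 1.53 to 4.50 RPKM in untreated shPRMT1 libraries, against 2.62 and 3.82 RPKM in untreated shScramble libraries (log2 difference -0.09, SE 0.35).

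SNORA65 ran from 4.47 to 7.19 RPKM in untreated shPRMT1 libraries, against 3.14 and 2.19 RPKM in untreated shScramble libraries, a log2 difference of 0.90 (SE 0.16, adjusted p 0.00824, limma). SNORA13 ran from 1.55 to 2.82 RPKM (3 to 6 reads), against 0.512 and 0.534 RPKM (1 read each), a log2 difference of 0.99 (SE 0.18). SNORA14B ran from 3.45 to 7.65 RPKM, against 2.02 and 2.10 RPKM, a log2 difference of 1.15 (SE 0.26). In these 3 genes all shPRMT1 libraries were above both shScramble libraries, which was not counted over all genes tested. Their calls were not made by voom, except that of SNORA13 once the replicate block was added. The calls were lost without replicate 2 (SNORA65) or without either replicate (SNORA13 and SNORA14B) of the untreated shScramble cells. Those of SNORA13 and SNORA14B were also lost at a pseudocount of 5, and that of SNORA14B when only the groups compared were fitted. SNORA40 (0.47, SE 0.12) and the SNORD63 record ENSG00000206989 (1.30, SE 0.35) were called near the threshold and lost under 15 and 20 of 25 alternatives. SNORA40 met the 1 RPKM rule through shPRMT1 libraries alone, so its higher value there supports nothing, and 3 H/ACA genes called higher remain without it.

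**Figure D3:**
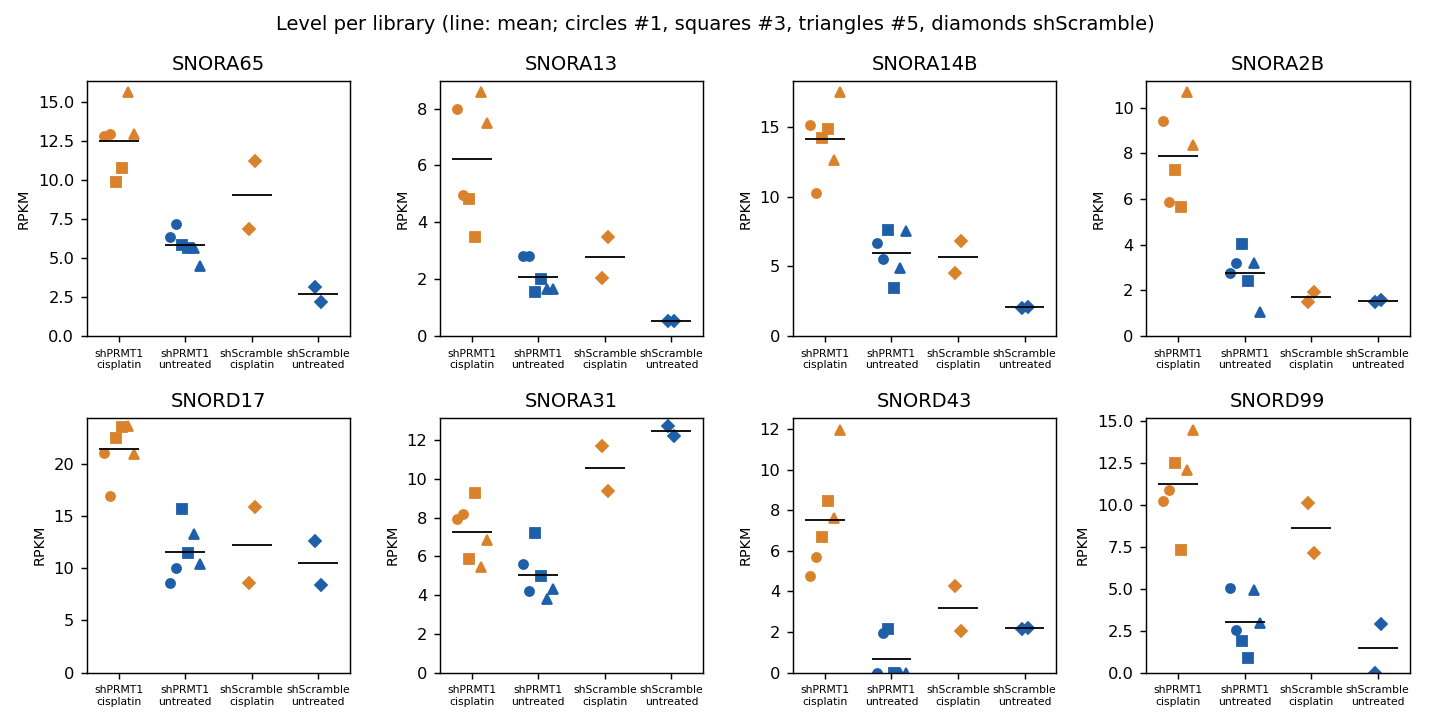
RPKM per library of 8 snoRNA genes (SNORA31 is the record ENSG00000253051), with shPRMT1 cisplatin, shPRMT1 untreated, shScramble cisplatin and shScramble untreated from left to right; lines are means, circles, squares and triangles are shRNAs #1, #3 and #5, and diamonds are shScramble. SNORA31 lies at 3.82 to 7.19 RPKM in untreated shPRMT1 libraries, below 12.2 and 12.7 RPKM in untreated shScramble libraries, while the other 7 genes have their highest mean in shPRMT1 cisplatin libraries.

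Under cisplatin, shPRMT1 libraries differed from shScramble ones by a median log2 difference of 0.34 in C/D and 0.36 in H/ACA genes, beside 0.02 over all genes. With a pseudocount of 5 these medians were 0.21 and 0.18. By shRNA, the C/D median was 0.34 for #1, 0.16 for #3 and 0.36 for #5. Calls were made for 3 C/D and 6 H/ACA genes, all higher, where 10.4% of all genes tested were called higher and 9.36% lower (19.8% in either direction), so the 9.89% of snoRNA genes called was near the background. With the replicate block, 14 were called higher and 1 lower. This comparison shares its cisplatin libraries with the ones above.

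SNORA2B, a large-subunit guide, ran from 5.65 to 10.7 RPKM (median 7.83) in shPRMT1 cisplatin libraries, against 1.49 and 1.93 RPKM (3 and 4 reads) in shScramble cisplatin libraries. All 6 knockdown libraries were above both control libraries, and the log2 difference was 1.69 (SE 0.26, adjusted p 0.00157, limma). In untreated cells it had 1.06 to 4.02 RPKM in shPRMT1 libraries, against 1.49 and 1.56 RPKM in shScramble libraries, and was not called (0.53, SE 0.26). SNORA13 had 3.49 to 8.57 RPKM, against 2.05 and 3.48 RPKM (log2 difference 0.91, SE 0.18), and SNORA14B 10.3 to 17.6 RPKM, against 4.54 and 6.86 RPKM (1.18, SE 0.26), with all knockdown libraries above both control libraries for both genes. How many of all genes tested separated in this way under cisplatin was not counted.

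SNORD17 had 17.0 to 23.7 RPKM in shPRMT1 cisplatin libraries, against 8.63 and 15.9 RPKM in shScramble cisplatin libraries, a log2 difference of 0.81 (SE 0.22). The other genes called under cisplatin were SNORA69 (0.89, SE 0.22), SNORA40 (0.56, SE 0.12), SNORA19 (0.99, SE 0.28), SNORD89 (0.73, SE 0.21) and SNORD73 (0.91, SE 0.29), the last 3 picked out after their values were seen. SNORA40 again met the rule through shPRMT1 libraries alone, and 5 H/ACA genes called higher remain without it. SNORA19 and SNORD73 reached 1 RPKM in 10 and 9 shPRMT1 libraries and in 1 shScramble library each, so they met the rule mostly there. Replicate 1 of the shScramble cisplatin libraries bore on most of these calls: without it, 3 snoRNA genes were called in place of 9, and SNORD17, SNORA14B, SNORA13 and SNORA69 were not among the calls. SNORA69 was also lost without replicate 2, and so was SNORA40. The SNORA2B call held without any 1 library.

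Set beside their hosts, snoRNA genes that rose after cisplatin in shPRMT1 cells mostly lay in hosts that rose too. Of the 47 called higher that have a host, 40 had a host called higher and 0 a host called lower. Over the 63 hosts, 42 (66.7%) rose and 2 fell, with a median log2 difference of 0.23. Among all genes tested, 30.4% were called higher and 23.6% lower. A host that holds several snoRNA genes can count more than once among the 40. The snoRNA genes' median was larger than that of the hosts, 0.75 over the 82 genes with a host, and this was tested gene by gene.

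The member-minus-host difference was fitted over 1121 pairs of a gene lying within another. In shPRMT1 cells 15 of 47 C/D and 9 of 35 H/ACA genes were called above their host after cisplatin and 0 below, where 28.5% of all pairs were called above and 5.71% below. With a pseudocount of 5 the calls were 17 above and 4 below. The share of 29.3% was thus near the background of other genes lying within a gene. The median difference was 0.51 for C/D and 0.38 for H/ACA genes, beside 0.23 over all pairs. SNORD43 rose by 2.51 where RPL3, its host, had 27.6 ± 1.76 RPKM in shPRMT1 cisplatin libraries and 26.5 ± 0.937 RPKM in untreated ones (SD, n = 6 each), a difference of 2.45 between gene and host (SE 0.32, adjusted p 0.0001, limma). SNORD43 overlaps an exon of an RPL3 transcript, so its reads may also come from spliced RPL3 RNA. SNORA14B stood 1.13 above TOMM20 (SE 0.21), SNORA26 1.11 above DANCR (SE 0.21) and SNORA65 0.68 above RPL12 (SE 0.14). SNORD99, by contrast, rose beside its host SNHG12, which had 14.0 ± 1.33 RPKM with cisplatin and 5.94 ± 1.03 RPKM untreated (SD, n = 6 each).

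**Figure D4:**
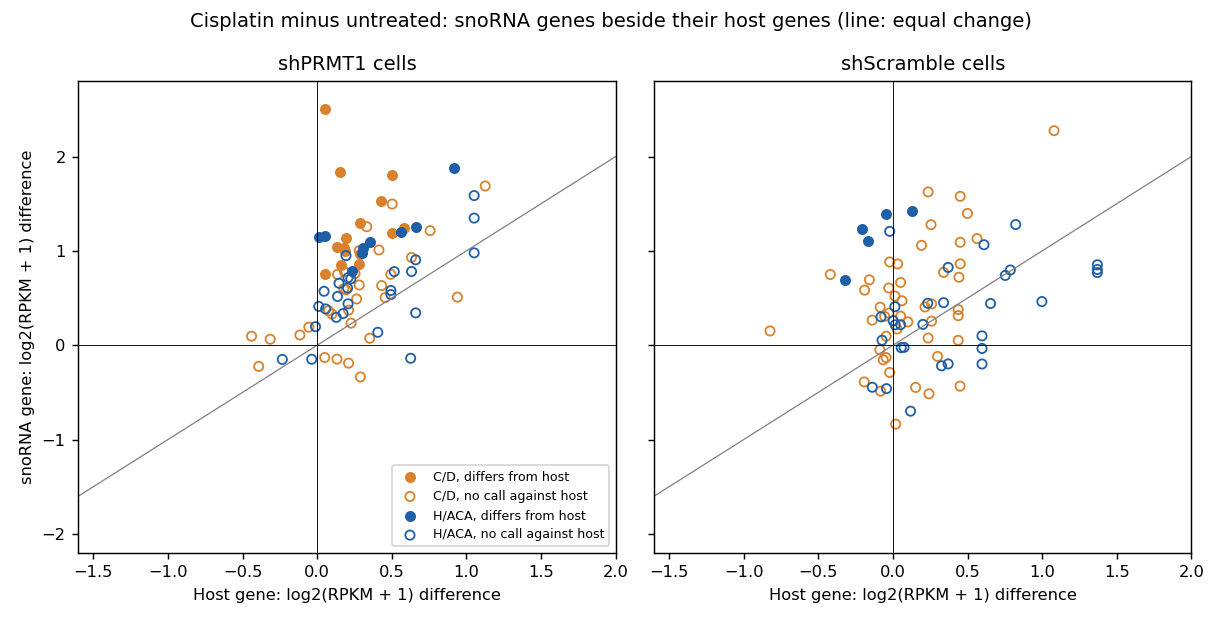
Log2(RPKM + 1) difference, cisplatin minus untreated, of 82 snoRNA genes (vertical) and of their host genes (horizontal) in shPRMT1 cells (left) and shScramble cells (right), filled where the gene was called different from its host; the grey line marks equal change. In shPRMT1 cells 24 filled points lie above the line and none below it, SNORD43 at the top (2.51, host 0.05).

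In shScramble cells 5 genes, all H/ACA, were called above their host after cisplatin and 0 below, where 8.30% of all pairs were called above and 2.68% below. They were SNORA65, the 53-base SNORA66 record, SNORA45, SNORA14B and SNORA26. SNORA65 stood 1.30 above RPL12 (SE 0.25), and the number of calls ran from 0 to 4 without 1 library, the 0 without replicate 2 of shScramble cisplatin. Between untreated shPRMT1 and shScramble cells 1 gene was called above its host, SNORA14B by 1.64 (SE 0.29), where 0.535% of pairs were called above and 0.803% below, and 3 were called with the replicate block. TOMM20, the host, had 37.9 ± 8.48 RPKM in untreated shPRMT1 libraries (SD, n = 6), against 54.1 and 51.4 RPKM in untreated shScramble libraries. Under cisplatin 4 genes were called above their host, SNORA14B (1.50, SE 0.29), SNORA2B (1.46, SE 0.25), SNORA13 (1.00, SE 0.19) and SNORD17 (0.86, SE 0.23), where 5.98% of pairs were called above and 1.87% below (7.85% in either direction). Without replicate 1 of the shScramble cisplatin libraries 0 were called. For the difference between responses 0 of 82 were called against the host, where 0.268% of pairs were called above and 0% below. Of the 82, 11 had an unadjusted p under 0.05, a count not made over all pairs.

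By kind of host, the 16 snoRNA genes in long non-coding hosts had a median log2 difference of 1.08 after cisplatin in shPRMT1 cells and 11 rose. The 18 in ribosomal protein genes had a median of 0.77 and 15 rose, and the 48 in other hosts a median of 0.58 and 21 rose. Of the 9 with no host, 2 rose and 1 fell, with a median of 0.32. Over all genes tested, 30.4% were called higher in this comparison and 23.6% lower. The 62 genes in an intron of every host transcript had a median of 0.70, and the 12 that overlapped a host exon had 0.86. These groups were not tested against each other.

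The mRNAs of the proteins in the snoRNA particles were set beside the RNAs, and their counts stand against 30.4% of all genes called higher after cisplatin in shPRMT1 cells and 15.5% in shScramble cells. After cisplatin in shPRMT1 cells all 4 C/D core proteins rose, with NOP56 at 0.63 (SE 0.04) and FBL, the methyltransferase fibrillarin, at 0.20 (SE 0.03), and 3 of 4 H/ACA core proteins rose, GAR1 by 0.32 (SE 0.04) and DKC1, the pseudouridine synthase dyskerin, by 0.30 (SE 0.04). In shScramble cells 2 and 1 of these rose. NOP56 was also called in the difference between responses (0.29, SE 0.07). Of 14 assembly factors 11 rose in shPRMT1 cells and 5 in shScramble cells, NOLC1, a nucleolar chaperone of the particles, by 0.66 (SE 0.03) in shPRMT1 cells. Of 12 processing factors 7 rose and 1 fell in shPRMT1 cells and 5 rose and 1 fell in shScramble cells. DBR1, which opens the excised intron lariat, rose by 1.00 (SE 0.06), and the exosome subunit EXOSC2 by 0.93 (SE 0.05), while the deadenylase PARN, which trims the 3′ ends of H/ACA RNAs, fell by 0.92 on the log2 scale (SE 0.05).

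The same shares of all genes, 30.4% higher and 23.6% lower in shPRMT1 cells and 15.5% and 14.7% in shScramble cells, are the background for the other RNA lists. Of long non-coding host genes, 15 of 18 tested rose in shPRMT1 cells (1 fell) and 10 of 18 in shScramble cells (1 fell). SNHG15 rose by 1.16 (SE 0.05) and SNHG12 by 1.13 (SE 0.05) in shPRMT1 cells. Small Cajal body RNAs, which guide modification of spliceosomal RNAs, numbered 19 tested, of which 8 rose and 1 fell in shPRMT1 cells. In shScramble cells limma called 0 of them, with a median log2 difference of 0.38. SCARNA9 rose by 1.39 (SE 0.15) and SCARNA13 by 1.38 (SE 0.18). Other small RNAs (spliceosomal and their copies, RN7SK and the like) numbered 152 tested, with 33 higher and 5 lower in shPRMT1 cells and 5 higher and 3 lower in shScramble cells, both below the share of all genes called. The repeated C/D families of the imprinted loci and their neighbours had 7 of 114 records tested, of which 0 rose and 2 fell in shPRMT1 cells, SNORD116-20 by 0.45 (SE 0.08) and SNORD109A by 0.52 (SE 0.19), both under 1 RPKM on average.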

How the data were processed

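RNA from 16 libraries of SK-OV-3 cells (made with TruSeq RNA v2 reagents per the labels) was deposited by the authors as 1 table of RPKM values per gene, per the file headers. HISAT2, GRCh37 and mm9 are among the names in the submitters' processing notes without a role; for the counter and annotation, the sources used here give no name. RPKM steps gave whole reads for 40649 of 40649 genes above 0 (tolerance 0.01), 12289319 to 16039782 per library, so 1 read in a gene of 100 bases is worth 0.623 to 0.814 RPKM.

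log2(RPKM + 1) of 18149 genes (1 RPKM or more in 2 libraries) was fitted with limma 3.58.1 in R 4.3.3 as 8 group means, with averaged contrasts over the 3 shRNAs, and Benjamini-Hochberg adjustment over all genes. A call is an adjusted p under 0.05. Folds on this scale understate the change of low genes. The host was the same-strand containing gene with the highest mean RPKM, and gene minus host was fitted over 1121 pairs. The fits were tested on simulated data. Tables were handled in Python 3.11.15 with pandas 2.3.3.

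Named genes are, per comparison, up to 6 members in each direction with the lowest adjusted p, the 6 highest of each class, SNORA31, their hosts and up to 4 called genes per list. The members and lists were chosen with earlier results of these data known. Replicates of the same number deviated together in all 28 pairs of groups (correlation over genes 0.30 to 0.70), so the numbers pair the libraries; over the 91 snoRNA genes it was above 0 in 19 of 28. Other pseudocounts, filters, scaling, hosts, a replicate block, fewer groups and leaving out each library were tried. The unit is RPKM, so the planned count tests were not run.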

Additional observations from a re-analysis of the deposited data

Results flagged for a closer look

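In 54 groups of 6 libraries, a single library stood apart from the rest by Dixon's criterion in 2, where chance flags about 1 group in 20. The SNORD19 record ENSG00000212493 had 8.83 RPKM in replicate 1 of untreated shPRMT1 #1, where the next highest untreated shPRMT1 library had 4.27 RPKM and the lowest 2.02 RPKM. The SNORA66 record ENSG00000251795 had 7.31 RPKM in replicate 2 of shPRMT1 #3 with cisplatin, where the next lowest shPRMT1 cisplatin library had 15.2 RPKM and the highest 18.8 RPKM.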

How the results depend on the processing

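No call of a named snoRNA gene changed direction under any alternative tried. Counts and class medians were compared for the size of the change only, not for direction. Cisplatin in shPRMT1 cells gave 50 calls among the 91 genes, 44 to 51 without 1 library, and 24 calls against the host, 17 to 26 without 1 library and 17 higher and 4 lower with a pseudocount of 5. Class medians moved with the pseudocount: for cisplatin in shPRMT1 cells they were 0.91 (C/D) and 0.86 (H/ACA) at 0.1, and 0.44 and 0.30 at 5. With the replicate block the calls were 13 in place of 8 for cisplatin in shScramble cells, 15 in place of 9 for knockdown under cisplatin, 6 in place of 0 for the difference between responses, and 3 in place of 1 against the host for knockdown untreated; no other count moved by over 1.5 times under it. A pseudocount of 5 gave 3 calls in place of 6 for knockdown untreated, 14 for knockdown under cisplatin, 2 for the difference between responses and 8 (5 higher, 3 lower) in place of 5 against the host in shScramble cells. A pseudocount of 0.1 gave 1 call for the difference between responses and 2 against the host for knockdown untreated. Fitting only the groups compared gave 3 calls for knockdown untreated, 5 for knockdown under cisplatin, and against the host 1 in shScramble cells, 0 for knockdown untreated and 2 in place of 4 under cisplatin. Without the low-value filter knockdown under cisplatin gave 5. Voom on recovered reads, chosen after seeing the data, gave 5 for cisplatin in shScramble cells, 1 for knockdown untreated (3 with the block) and 5 for knockdown under cisplatin. The cause of these shifts was not tested. Without 1 library the counts ran from 3 to 11 (shScramble cisplatin), 2 to 6 (knockdown untreated), 3 to 10 (knockdown under cisplatin) and 0 to 3 (difference), and against the host from 0 to 4, 0 to 3, 0 to 5 and 0 to 0. In shScramble cells 8 calls became 3 without replicate 1 of either treatment and 4 without replicate 2 of cisplatin. The planned count tests were not run, since the unit is RPKM. Most genes have under 10 reads per library, so a missed call says little about these genes.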
